A study of Mus musculus with 24 samples.

Results

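Chromatin accessibility after knockdown of Chd8 with the hairpin named shRNA2 was described from 4 ATAC-seq libraries of the 24 in the series. ATAC-seq uses a transposase to insert sequencing adapters into open DNA, and a peak marks a stretch with more insertions than its surroundings. The 2 libraries titled shRNA2 were set beside the 2 libraries titled shluci of the same Chd8 set. All 4 came from the mouse embryonic stem cell line E14 with the genotype CTCF AID, in which the DNA-binding protein CTCF carries a degron that responds to the auxin IAA, and none of the 4 had received IAA. The growth protocol names serum-free medium with leukemia inhibitory factor and the inhibitors PD0325901 and CHIR99021. The target of shluci, the time after introduction of the hairpins, any selection and the number of clones are not given in the sources used here, nor is it said that replicates were separate cultures, so the spread between libraries may be technical. CTCF is tagged in the shluci cells as well, so no untagged cells enter the comparison.

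CHD8 is a chromatin remodeller that uses ATP to move nucleosomes, and it belongs to the CHD family. It is known to bind CTCF, to restrain the β-catenin branch of Wnt signalling and the tumour suppressor p53, and its gene is among those most often mutated in autism. Embryonic stem cells kept with both inhibitors are in the naive state, in which Nanog, Esrrb and Zfp42 are active while genes of the primed state and of the germ layers are mostly silent.

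A region was called lost when both shluci lists and neither shRNA2 list held a peak in it, and gained in the opposite case, over 277081 merged regions. There were 8423 lost regions, 3.04% of all, and 8258 gained regions, 2.98% of all. The lists differ in length, so the same counts were taken after each list was reduced to its 135410 most significant peaks, the length of the shortest, which gave 6022 lost and 9731 gained regions. Lost regions thus made up 50.5% of the changed regions with the lists as deposited and 38.2% at equal length. Regions that met the rule under both lengths, called strict here, numbered 5904 lost (2.13% of all regions) and 7879 gained (2.84%). Many shluci peaks are tied in −log10 p at this length, 11373 in replicate 1 and 18394 in replicate 2, of which 7453 and 10761 were kept in order of chromosome and position. In an alternative chosen after seeing the data, with ties in random order, the strict counts were 5865 and 7879. No region was tested singly, because exact permutation of 2 libraries against 2 cannot give a two-sided p below 0.333.

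The highest-ranked changed regions are shown with their sequence, since the results are about such stretches of DNA. They are the first 3 strict regions of each direction, ranked by the lower of the 2 within-list percentiles of −log10 p, outside untranslated regions. Each is the plus strand of GRCm38 from RefSeq, 75 bases either side of the summit. Capitals mark an exact match, on either strand, to 1 of 16 short motifs or a match to the CTCF consensus with at most 1 mismatch.

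Lost near Gm37580, chr1:24100508-24100658: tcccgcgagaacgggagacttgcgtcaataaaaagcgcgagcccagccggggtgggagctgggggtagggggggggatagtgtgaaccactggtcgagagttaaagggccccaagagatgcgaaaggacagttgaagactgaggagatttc
Lost near Mir28b, chr8:72991675-72991825: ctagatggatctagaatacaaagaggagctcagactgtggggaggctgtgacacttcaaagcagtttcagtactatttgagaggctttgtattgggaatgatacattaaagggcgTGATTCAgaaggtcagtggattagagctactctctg
Lost near Gm2343, chr1:163731908-163732058: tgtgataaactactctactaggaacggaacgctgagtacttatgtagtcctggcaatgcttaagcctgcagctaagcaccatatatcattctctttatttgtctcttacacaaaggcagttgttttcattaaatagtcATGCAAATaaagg
Gained near Gm3555, chr1:98476654-98476804: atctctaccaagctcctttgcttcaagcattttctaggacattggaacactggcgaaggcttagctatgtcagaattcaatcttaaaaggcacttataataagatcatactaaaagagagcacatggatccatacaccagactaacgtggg
Gained near Slc19a2, chr1:164250634-164250784: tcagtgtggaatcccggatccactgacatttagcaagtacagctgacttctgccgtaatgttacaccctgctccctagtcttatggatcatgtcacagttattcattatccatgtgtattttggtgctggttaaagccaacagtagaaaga
Gained near Gm11923, chr4:29645054-29645204: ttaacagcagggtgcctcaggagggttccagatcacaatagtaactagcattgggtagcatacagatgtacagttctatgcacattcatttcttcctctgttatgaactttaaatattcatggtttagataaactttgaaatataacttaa

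The region at the promoter of the long noncoding RNA gene Gm37580 had a deposited fold over local background of 10.3 and 7.73 in shluci replicates 1 and 2, with no peak in either shRNA2 list there. A shRNA2 peak lay 104 bp away, and both shRNA1 libraries called the region. The intronic region nearest Mir28b had folds of 8.18 and 8.30 and a shRNA2 peak 76 bp away, and its capitals mark an AP-1 motif (TGANTCA), which 14.9% of all regions hold within 250 bp of their summit. The region nearest the pseudogene Gm2343 had folds of 8.79 and 8.85 and no shRNA2 peak within 430 bp, and its capitals mark an octamer motif (ATGCAAAT), which 3.62% of all regions hold. Among gained regions, the intronic one nearest the pseudogene Gm3555 had folds of 11.1 and 9.20 in shRNA2 replicates 1 and 2, 161 bp from a shluci peak. A soft-masked repeat covered 83.8% of the window around its summit. The gained region 1456 bp from a start of Slc19a2, which encodes a thiamine transporter, had folds of 6.40 and 6.10, and no motif of the 17 searched lay in the printed stretch. The gained region nearest Gm11923, with folds of 10.9 and 8.79, lay beyond 100 kb from any start.

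None of the regions assigned to Chd8 itself was lost or gained. Its promoter region, chr14:52257313-52258175 (GRCm38), was called in all 4 lists, with folds of 12.5 and 15.2 in shluci and 13.1 and 12.6 in shRNA2. A second Chd8 region, in an intron at chr14:52244177-52244929, was also called in all 4 lists, with folds of 10.4 and 12.0 in shluci and 11.2 and 13.1 in shRNA2. A hairpin acts on the transcript, so these values do not check the knockdown, and the peak lists hold nothing else that does.

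The lists held 154566 and 166697 peaks in shluci and 140431 and 135410 in shRNA2. Depth is not stated in the lists, and the value implied by MACS2's own model without a control was at most 20.5 M reads (M, mega), with the 4 libraries within 0.459 M of each other. shluci replicate 1 stood apart, with a median peak width of 81 bp against 120, 128 and 138 bp in shluci replicate 2 and the shRNA2 libraries, and 16.4 Mb covered against 26.8 to 30.0 Mb. The shortest peak was 33 and 57 bp in shluci replicates 1 and 2, and 60 and 66 bp in shRNA2 replicates 1 and 2. The depth estimate took this width as the length to which reads were extended, so it assumes a length that differs between libraries. The lists do not show whether that length was set or fitted, or whether other settings were the same in the 4 libraries. The part of peak width in the calls was not tested. Overlaps within a group were not always the higher ones: 62.5% of shRNA2 replicate 1 peaks overlapped a peak of shRNA2 replicate 2, and 63.4% one of shluci replicate 2. Of shluci replicate 1 peaks, 59.98% overlapped one of shluci replicate 2, and 57.6% and 57.7% one of shRNA2 replicates 1 and 2. Identical intervals made up at most 0.130% of a list in any pair. Regions called in all 4 lists lay within 2000 bp of a start for 9 of 10 embryonic stem cell markers, all but Klf4, against 12 of 20 neural, 9 of 15 trophoblast, 8 of 15 fibroblast and 7 of 20 mesoderm and endoderm markers, and 1 of 15 markers of the 2-cell-like state. The fibroblast markers without one were Col3a1, Thy1, Lum, Dcn, Postn, Fap and Acta2.

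**Figure D1:**
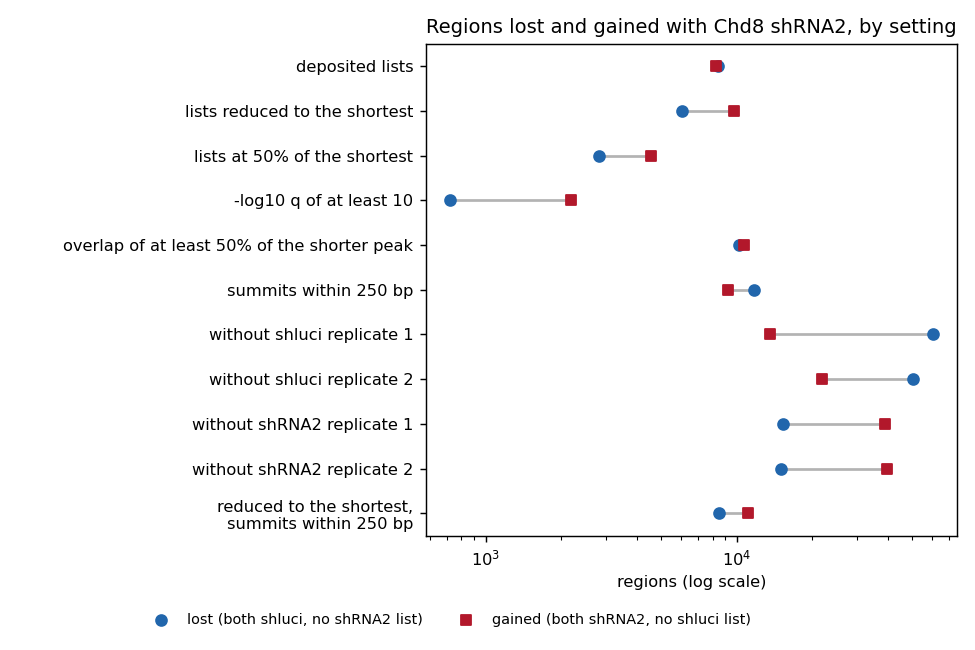
Number of lost regions (circles) and gained regions (squares) on a logarithmic axis, under each way of comparing the 2 shluci with the 2 shRNA2 lists. The counts lie together, at 8423 and 8258, with the lists as deposited, gained regions outnumber lost ones once the lists have equal length, and the group left with 1 library has the higher count by construction of the rule.

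Leaving out a library relaxes the rule on its side. Without shluci replicate 1 there were 60592 lost and 13557 gained regions, and without shluci replicate 2 there were 50084 and 21779. Without shRNA2 replicate 1 there were 15270 lost and 38816 gained regions, and without shRNA2 replicate 2 there were 14926 and 39641. The jump shows how many regions rest on a single library: 65.9% of the regions called in shluci were called by 1 of its 2 libraries, and 56.5% of those called in shRNA2 by 1 of 2. A region changed by this rule often lay near a peak of the other group. In 37.8% of lost regions a shRNA2 peak lay within 250 bp, and in 47.5% of gained regions a shluci peak did, so 5242 lost (1.89% of all regions) and 4334 gained regions (1.56%) had no peak of the other group that near.

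Changed regions were weak peaks. The median fold of lost regions was 4.41 and 4.35 in the shluci libraries, against 6.50 and 6.98 for regions called in all 4 lists. Gained regions had median folds of 4.52 and 4.53 in the shRNA2 libraries, against 6.94 and 6.97 for regions called in all 4. By the lower of a region's percentiles of −log10 p in the 2 lists of its group, of the regions called by both shluci libraries 33.5% were lost below the percentile 10, 0.508% between the percentiles 80 and 90, and 0 of 9637 above 90. Gained regions followed the same course, from 34.8% of those called by both shRNA2 libraries to 0.160% between 80 and 90 and 0 of 9922 above 90. Single lists placed some changed regions higher, such as the lost region at Gm37580, at the percentile 94.5 in shluci replicate 1.

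**Figure D2:**
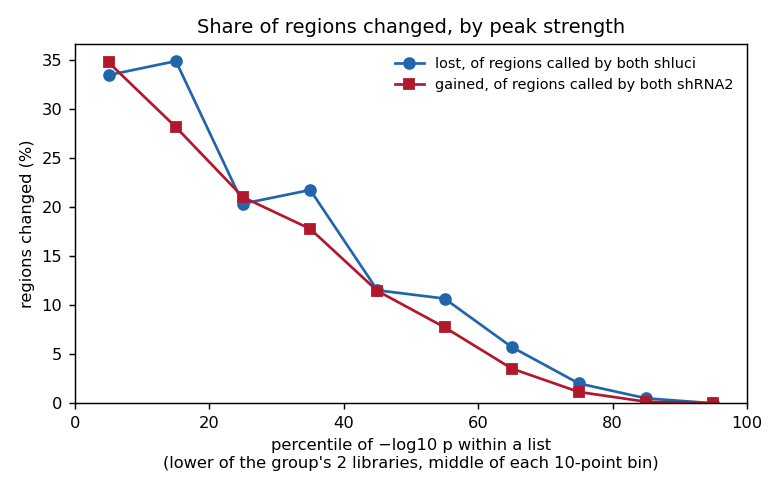
Share of regions lost (circles, of those called by both shluci libraries) and gained (squares, of those called by both shRNA2 libraries) against peak strength, given as the lower of the percentiles of −log10 p in the 2 lists of the group. Both curves fall from the weakest regions, at 33.5% and 34.8%, to 0 among the strongest.

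Promoters changed less often than other regions. A promoter region was one with a start no more than 500 bp from its summit, and 683 of 32067 were lost (2.13%) and 792 gained (2.47%), against 3.04% and 2.98% over all regions. Regions called in all 4 lists were the ones most often at promoters, 26.4% of them against 8.11% of lost and 9.59% of gained regions. Introns held 42.8% of lost and 40.2% of gained regions, and stretches outside genes up to 100 kb from a start held 32.5% and 31.1%, near their shares of 40.1% and 31.3% among all regions. Between 500 and 2000 bp from a start, 2.85% of regions were lost and 3.52% gained. Coding exons held 3.39% lost and 2.94% gained, and other exons 3.78% and 3.18%. At equal list length the promoter shares were also lower, with 1.60% lost against 2.48% of all regions and 3.07% gained against 4.00%. Without shluci replicate 2 the gained share at promoters was the higher one, 11.02% against 9.38% of all regions, and without each of the other 3 libraries both promoter shares stayed lower.

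**Figure D3:**
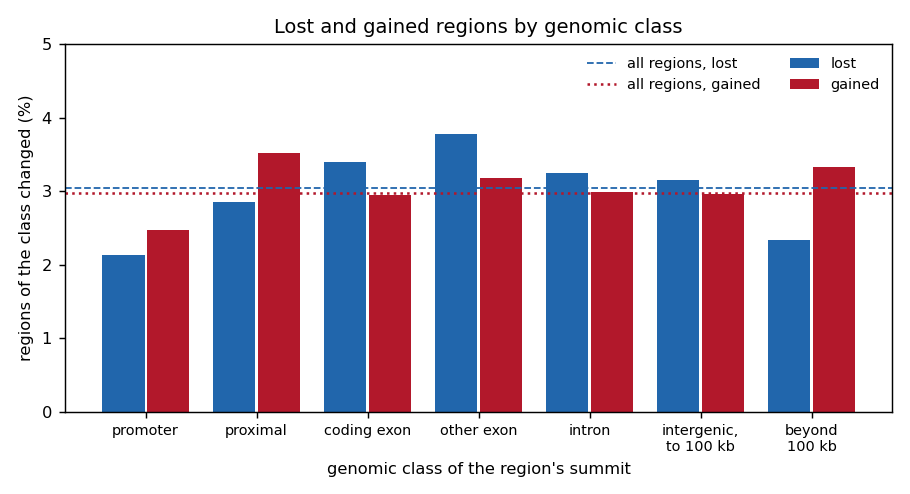
Share of the regions of each genomic class that were lost (left bars) or gained (right bars), with the shares over all regions as a dashed line for lost (3.04%) and a dotted line for gained (2.98%). Both promoter bars, 2.13% and 2.47%, stay under their line, and the lost bar is highest in other exons at 3.78%.

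Over all peaks rather than changed regions, the promoter share at equal list length was 19.5% and 18.4% in shluci and 18.4% and 17.9% in shRNA2. The means were 18.9% ± 0.748 (SD, n = 2) and 18.1% ± 0.342 (SD, n = 2), and their difference of −0.821 percentage points was no larger than the spread between replicates of 0.823. With the lists as deposited the promoter difference turned to 0.710 points, and that of introns from 0.241 to −0.794. The share of peaks 500 to 2000 bp from a start was 9.60% and 9.31% in shluci and 10.0% and 9.74% in shRNA2, a difference of 0.421 points against a spread of 0.280. It fell under that spread at 50% of the shortest list, to 0.0236 points, and with −log10 q of at least 10, to 0.108 points. Exact permutation of the 4 libraries, two-sided, gave p = 0.333 for each, the lowest this design can reach, and 0.917 after Benjamini-Hochberg adjustment over 11 shares. Groups did not overlap in 4 of these 11 shares, those of promoters, of the 500 to 2000 bp class, of introns and of the CTCF consensus, all at equal list length.

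Protein-coding genes held 457 lost (1.92%) and 580 gained (2.43%) promoter regions of 23835, at 453 and 567 genes. Of these genes, 189 with a lost and 275 with a gained promoter region also had another promoter region called in all 4 lists. The promoters of long noncoding RNA genes held 138 lost (2.71%) and 130 gained (2.55%) regions of 5099. Over all promoter regions the shares were 2.13% and 2.47%. Lost promoter regions had a mean of 19.9 CpG sites in the 250 bp either side of the summit, against 28.2 in gained promoter regions and 27.5 in all promoter regions.

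The highest-ranked lost promoter regions belonged to genes of varied roles. Fgf10, a growth factor that directs lung and limb outgrowth, lost the region chr13:118714628-118714780, 32 bp upstream of a start, with folds of 6.97 and 6.31 in shluci. A shRNA2 peak lay 102 bp away, and neither library of the other Chd8 hairpin, shRNA1, called it. Daam1, a formin that acts in planar cell polarity, lost a region 242 bp upstream of a start (folds of 7.01 and 6.96), 2252 bp from the nearest shRNA2 peak, and kept another promoter region in all 4 lists. Rpsa, which encodes a protein of the small ribosomal subunit, lost a region 35 bp upstream of a start, chr9:120127584-120127682, with folds of 7.47 and 5.97 and no shRNA2 peak within 4813 bp. Both shRNA1 libraries called the Rpsa region. The protocadherin gene Pcdhga12 (7.40 and 8.10) and Ccdc89 (8.55 and 6.88) were also in the first 8, with the noncoding RNA genes Gm37580, AC120159.1 and D930019O06Rik.

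Among gained promoter regions, Ano4, of the anoctamin family, ranked first with chr10:89257117-89257282, 75 bp upstream of a start, and folds of 8.11 and 8.98 in shRNA2. A shluci peak lay 115 bp away. Dock8, a guanine nucleotide exchange factor for the small GTPase Cdc42, gained a region 267 bp upstream of a start, chr19:24999212-24999392, with folds of 8.50 and 8.21. Ldb2, a cofactor that binds LIM-homeodomain proteins, gained a region 114 bp downstream of a start with folds of 7.29 and 9.96, and both shRNA1 libraries called it. Pou4f1, a transcription factor of sensory neurons, gained a region 186 bp upstream of a start (5.83 and 5.34), 62 bp from a shluci peak and beside a promoter region called in all 4 lists. Arhgef7 (7.99 and 7.12), an exchange factor for Rac and Cdc42, Bod1 (7.16 and 6.84), which acts in chromosome alignment, Fkbp9 (5.29 and 5.15), a prolyl isomerase of the endoplasmic reticulum, and the noncoding RNA gene E130307A14Rik completed the first 8.

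Away from promoters, the lost regions ranked highest lay near Mir28b, Gm2343, D730045A05Rik, Fbxo5, Mir7039, Fundc1, Gm47436 and Gm22265. The gained ones lay near Gm3555, Slc19a2, Gm11923, Spin4, Gm6064, Gm9700, Gm7559 and Gm13972. The gained region nearest Gm13972 lay wholly in soft-masked sequence, 100% of the window, and those nearest Spin4 and Gm6064 were 76.4% and 49.5% masked. Masked sequence did not mark gained regions as a set, since 9.54% of gained and 10.1% of lost regions were at least 50% masked, against 10.5% of all regions.

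The CTCF consensus differed between the directions when all 4 libraries were used. Both strands of the 250 bp either side of each summit were searched for the 14-base consensus, and 1 mismatch was allowed. Lost and gained regions had median widths of 118 and 154 bp, so a match may lie outside the called interval. A region is said here to hold the consensus when this window does. The consensus was found for 714 lost regions (8.48%) and 8.00% of the other regions called by both shluci libraries. It was found for 316 gained regions (3.83%) and 7.18% of the other regions called by both shRNA2 libraries. The share was 7.40% of regions called in all 4 lists and 5.67% of all regions. Away from promoters the shares were 8.80% of lost and 4.00% of gained regions, against 5.82% of all. Among strict regions they were 9.37% and 3.88%.

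Regions of like strength were then set side by side. Between the percentiles 60 and 80 the window held the consensus for 14.4% of 627 lost regions. It did so for 8.59% of 15842 regions that both shluci libraries called and that were not lost. Between 40 and 60 the shares were 10.6% and 8.23%, between 20 and 40 they were 8.43% and 8.27%, and under 20 they were 6.47% and 7.48%. Gained regions had the consensus less often than the other regions called by both shRNA2 libraries in each of the 4 bins, from 3.78% against 6.04% under the percentile 20 to 3.09% against 8.10% between 60 and 80. These shares describe regions of the same 4 libraries and are not a test.

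The low share of gained regions held in the settings compared, and the high share of lost regions did not. Gained regions held the consensus in 3.97% at equal list length and 5.74% at 50% of that length, against 7.30% and 7.46% of the other regions called by both shRNA2 libraries. Leaving out one library at a time gave 3.79% to 5.05% in gained regions. Lost regions held it in 9.33% at equal length and 10.8% at 50% of it, against 8.08% and 8.00% of the other regions called by both shluci libraries. They held it in 9.06% without shRNA2 replicate 1 and in 8.96% without shRNA2 replicate 2. Without shluci replicate 1 the share was 4.85% of lost regions, under the 7.35% of the regions kept. It was then also under the 5.05% of gained regions, so the order of the directions turned. Without shluci replicate 2 the share was 5.69% of lost regions, against 7.80% of the regions kept and 5.04% of gained regions.

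**Figure D4:**
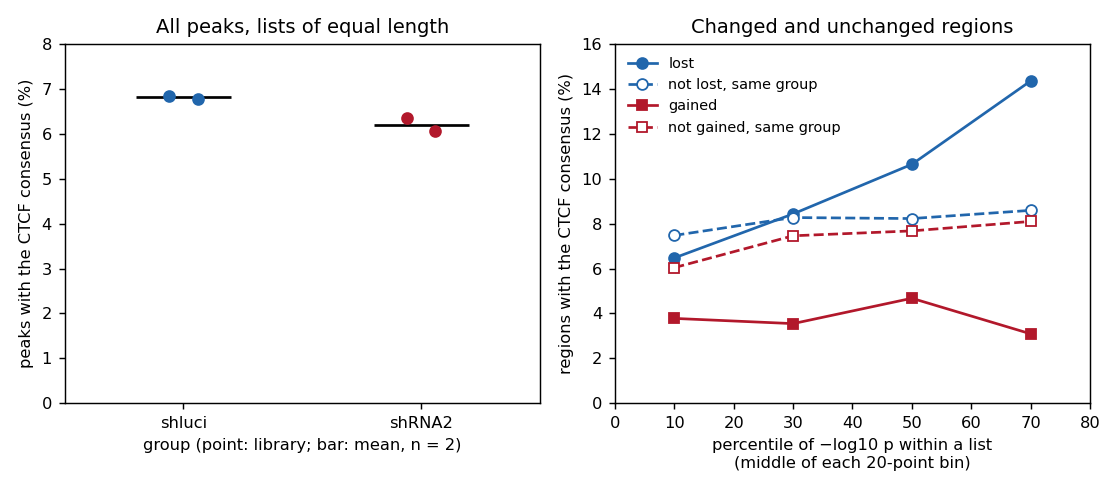
Left, share of all peaks with the CTCF consensus in each library at equal list length, with the mean of each group as a bar: shRNA2 lies at 6.34% and 6.07%, under shluci at 6.85% and 6.79%. Right, share of changed regions (filled) and of regions of the same group that did not change (open, dashed) with the consensus, by percentile of −log10 p, with lost regions as circles and gained regions as squares.

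Over all peaks at equal list length, 6.85% and 6.79% of shluci peaks held the consensus, and 6.34% and 6.07% of shRNA2 peaks. Both shRNA2 libraries were thus under both shluci libraries. The difference of −0.615 points exceeded the spread between replicates of 0.201. Its exact permutation p, two-sided, was 0.333, as low as the design allows, and 0.917 once adjusted over the 11 shares. With the lists as deposited the difference was −0.235 points, and with no mismatch allowed it was −0.185. With −log10 q of at least 10 it was −0.250 points. Within 50 bp of the summit it was −0.0558 points, under the spread of 0.201.

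The lost regions that rank highest among those with the consensus within 100 bp of the summit are printed as 54 bases, with 20 bases either side of the match. The match is in capitals on the strand that carries it, and the first 2 gained ones follow for comparison.

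Lost near Fbxo5, chr10:5790825-5790878, minus strand, 1 mismatch: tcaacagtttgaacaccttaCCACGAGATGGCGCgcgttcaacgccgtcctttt
Lost near Gm22265, chr1:192727141-192727194, plus strand, 1 mismatch: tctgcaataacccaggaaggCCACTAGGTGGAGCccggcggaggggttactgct
Lost near Zfyve1, chr12:83578416-83578469, minus strand, 1 mismatch: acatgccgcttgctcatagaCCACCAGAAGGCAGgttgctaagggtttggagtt
Lost near Epm2aip1, chr9:111289997-111290050, minus strand, 0 mismatches: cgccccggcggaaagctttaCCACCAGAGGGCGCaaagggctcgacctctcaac
Gained near Gm13267, chr2:5900309-5900362, plus strand, 1 mismatch: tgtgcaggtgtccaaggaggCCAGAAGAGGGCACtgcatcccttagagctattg
Gained near Gm14106, chr2:147656837-147656890, minus strand, 1 mismatch: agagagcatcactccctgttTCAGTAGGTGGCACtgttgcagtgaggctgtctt

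The lost region near Fbxo5, which encodes an inhibitor of the anaphase-promoting complex, lay 14676 bp from the gene's start outside any gene, with folds of 8.54 and 8.38 in shluci and a shRNA2 peak 33 bp away. The intronic lost region nearest Gm22265 had folds of 8.00 and 10.0. The lost region in an intron near Zfyve1 had folds of 7.07 and 5.97, and the one near Epm2aip1, the only exact match of the 4, had folds of 8.29 and 7.54. All 4 lost regions were called by both libraries of the control line of the series without IAA and by both shRNA1 libraries. With IAA, which degrades CTCF, the regions near Fbxo5 and Gm22265 were called by 0 of 2 control-line libraries and those near Zfyve1 and Epm2aip1 by 2 of 2. Near Zfyve1 and Epm2aip1 the closest shRNA2 peak lay 141 and 129 bp away, and near Gm22265 it lay 15033 bp away. The gained region near Gm13267 (6.43 and 6.56 in shRNA2) was called by 1 of 2 control-line libraries without IAA, 0 of 2 with IAA and 0 of 2 shRNA1 libraries. The one near Gm14106 (6.68 and 6.45) was called by none of these 6. The closest shluci peaks to these 2 gained regions lay 1873 and 33644 bp away. The printed matches near Gm22265, Epm2aip1 and Gm13267 lay outside the called interval of their region.

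The libraries with degraded CTCF took no part in the choice of regions, so calls in them are a separate readout. Lost regions with the consensus were called in 59.1% and 55.7% of cases by the 2 control-line libraries without IAA and in 24.1% and 19.3% by those with IAA. Lost regions without it were called in 57.2% and 56.0% without IAA and 57.7% and 54.0% with IAA. Gained regions with the consensus went from 58.5% and 58.5% to 37.3% and 31.0%, and those without it were at 62.1% and 59.3% against 63.7% and 58.4%. Regions called in all 4 lists and holding the consensus were called in 94.6% and 93.2% of cases without IAA and in 68.8% and 66.2% with IAA, so lower calling with IAA was not limited to changed regions. For changed regions without the consensus, the libraries with and without IAA overlapped.

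Of the other motifs searched, the octamer ATGCAAAT lay in 3.02% of lost and 4.66% of gained regions, against 3.62% of all regions. The ESRRB motif TCAAGGTCA lay in 2.46% of lost and 2.45% of gained regions, the KLF motif GGGNGTGG in 19.7% and 20.2%, and the TCF/LEF motif CTTTGAT in 8.25% and 7.45%. The YY1 motif AAGATGGCG lay in 1.46% and 0.932%, against 1.39% of all regions. Both strands were searched within 250 bp of the summit, and a match does not show that a factor was bound.

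Genes were then read in 14 lists by the roles of their members. Each region was assigned to the nearest start within 100 kb, and over all 264191 such regions 3.07% were lost and 2.96% gained. Over the 14 lists the lost share ran from 0.862% (primed pluripotency and Nodal) to 4.57% (p53 targets) and the gained share from 1.27% (CTCF and cohesin) to 8.62% (primed pluripotency and Nodal). The lists were chosen with earlier results of these data known, and no list was tested.

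**Figure D5:**
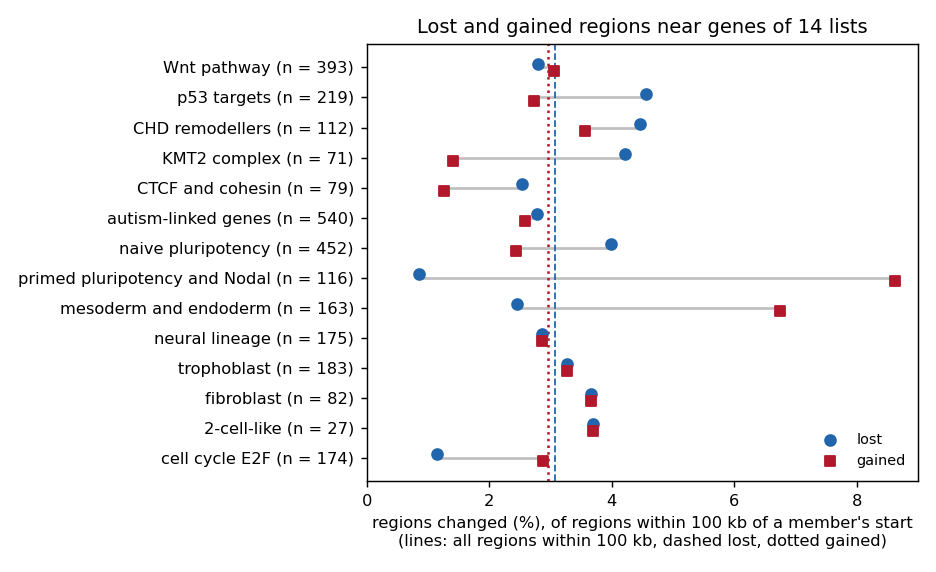
Share of regions lost (circles) and gained (squares) among the regions assigned to each of 14 gene lists, with the number of regions in parentheses and vertical lines at the shares over all assigned regions. The lists of primed pluripotency and Nodal genes and of mesoderm and endoderm genes have gained shares of 8.62% and 6.75%, right of the dotted line at 2.96%.

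The list of primed pluripotency and Nodal genes had 10 gained and 1 lost of 116 regions, 8.62% and 0.862%. The gained regions fell at 5 genes. Dnmt3b, a de novo DNA methyltransferase that rises as cells leave the naive state, had 3, of which chr2:153649406-153649477 lay 16 bp upstream of a start with folds of 4.70 and 5.18 in shRNA2. Sall2, a zinc finger gene of the Spalt family, had 4, of which 2 were promoter regions. Otx2, a homeobox gene of the primed state, had 1, 674 bp downstream of a start (5.12 and 3.78). Nodal, the ligand of the pathway, had 1 at 12086 bp (3.66 and 2.98), and the kinase gene Pim2 had 1 at 8624 bp upstream of a start (4.56 and 4.10). The lost region belonged to Zic2, a zinc finger gene, at 7202 bp from its start, with folds of 8.33 and 5.61 in shluci and a shRNA2 peak 90 bp away.

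At equal list length the primed genes drew 49 and 59 peaks in shluci, 72 and 72 in shRNA2 and 63 and 71 in the shRNA1 libraries, so the shRNA2 libraries lay above both shluci libraries. The groups overlapped in the number of these genes with a promoter peak in the lists as deposited, 3 and 9 in shluci and 8 and 8 in shRNA2. The gained share was 10.1% against 3.98% of all assigned regions at equal list length. Without shluci replicate 1 it was 10.4% against 5.70%, and without shluci replicate 2 it was 19.6% against 9.35%. Without shRNA2 replicate 1 it was 23.6% against 15.1%, and without shRNA2 replicate 2 it was 24.8% against 15.3%. Among regions with no shluci peak within 250 bp, 4 remained, 3.45% against 1.54%. The excess ended when lists were reduced to 50% of the shortest, where 1 of 57 regions was gained (1.75% against 4.12%).

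Genes of mesoderm and endoderm had 11 gained and 4 lost of 163 regions, 6.75% and 2.45%. Foxa2, a forkhead factor of endoderm, had 4 gained regions, between 4950 and 16545 bp from a start, with folds from 2.97 to 5.92. Cxcr4, a chemokine receptor marking definitive endoderm, had 3, with folds from 4.00 to 6.07. Eomes, a T-box gene, had 1 at 608 bp from a start (4.38 and 4.57), 9 bp from a shluci peak, and Gsc, a homeobox gene of the organizer, had a promoter region (3.86 and 4.20). Foxa1, a forkhead factor related to Foxa2, had 1. Lost promoter regions belonged to Sox17 and Foxa1, and of the 4 lost regions 1 was strict, near Tbx6.

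The list drew 72 and 81 peaks at equal list length in shluci, 86 and 97 in shRNA2 and 99 and 86 in shRNA1. Its gained share was 8.61% against 3.98% at equal list length and 12.2%, 17.2%, 21.4% and 19.0% without shluci replicates 1 and 2 and shRNA2 replicates 1 and 2, against 5.70%, 9.35%, 15.1% and 15.3% of all assigned regions. With no shluci peak within 250 bp it was 1.84% against 1.54%, and at 50% of the shortest list 1 of 76 regions was gained, 1.32% against 4.12%. These genes are also markers of other cell types: 7 of the 20 had a region called in all 4 lists within 2000 bp of a start, while T, Gata4, Gata6 and Sox17 had none. Whether differentiated cells contributed was not tested.

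Naive pluripotency genes had 18 lost and 11 gained of 452 regions, 3.98% and 2.43%. Esrrb, an orphan nuclear receptor that sustains the naive state, had 6 lost and 0 gained of 88 regions. The 4 strict ones had folds in shluci of 4.82 and 4.09, 4.34 and 4.97, 4.03 and 4.06, and 5.26 and 3.14, and 1 of them, chr12:86402601-86402748, held an exact CTCF match. Its 25 regions called in all 4 lists included a promoter region. Nr5a2, a nuclear receptor, had 3 lost and 2 gained regions, and Zfp42, a zinc finger marker of the naive state, had 3 lost and 0 gained. Nanog, a homeobox gene of the pluripotency network, had a lost region 860 bp upstream of a start (3.04 and 2.72) and kept 2 promoter regions in all 4 lists. On the gained side were Klf2 and Sall4 with 2 regions each, and Klf4, Klf5, Tet2, Dppa3 and Fgf4 with 1 each. At equal list length the shares were 2.66% lost and 2.90% gained, against 2.50% and 3.98% of all assigned regions. The peaks drawn were 293 and 264 in shluci against 271 and 256 in shRNA2, so the groups overlap. The lost share was 19.3% against 25.2% without shluci replicate 1 and 20.5% against 21.5% without shluci replicate 2, under that of all assigned regions. It was above it without shRNA2 replicates 1 and 2 (7.18% and 7.19% against 6.09% and 5.85%) and at 50% of the shortest list (3.69% against 2.65%). With no shRNA2 peak within 250 bp it was 2.43% against 1.90%.

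Genes of the p53 response had 10 lost and 6 gained of 219 regions, 4.57% and 2.74%. Trp53, which encodes p53 itself, lost a weak promoter region, chr11:69580031-69580118, with folds of 3.82 and 3.57 in shluci, which no library outside shluci called. Fas, a death receptor, lost a promoter region with folds of 5.14 and 4.35, and a shRNA2 peak lay 121 bp away. Sesn1, a stress-response gene, lost 2 regions (9.20 and 6.15 in the stronger), with a shRNA2 peak 11 bp from the stronger and 106 bp from the other. The pro-apoptotic gene Bax lost 2. Btg2, Phlda3 and Bbc3 lost 1 strict region each. Gained regions belonged to Mdm2, the ubiquitin ligase of p53, with 2, and to Pmaip1, Ei24, Plk2 and Tnfrsf10b with 1 each. The lost share was 4.50% against 2.50% at equal list length, 2.17% against 2.65% at 50% of it, and 1.83% against 1.90% for regions with no shRNA2 peak within 250 bp, so the excess ended in the last 2 settings. Without shluci replicate 1 it was 23.9% against 25.2% and without shluci replicate 2 it was 17.4% against 21.5%, where the excess ended too. Without shRNA2 replicates 1 and 2 it was 7.32% and 6.60% against 6.09% and 5.85%.

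Genes of the Wnt pathway had 11 lost and 12 gained of 393 regions, 2.80% and 3.05%. The receptor gene Fzd2 lost a promoter region (7.31 and 4.61 in shluci, 81 bp from a shRNA2 peak). The inhibitor Nkd1 (5.50 and 6.64 in shRNA2), the ligand Wnt7b (3.92 and 4.25) and the coreceptor Lrp6 (4.14 and 4.77) gained one. Znrf3, a ubiquitin ligase that removes Frizzled receptors, lost 2 strict intronic regions and gained 1. Axin2, a feedback inhibitor, lost 2, of which 1 was strict, and Ccnd1, a cyclin, lost 1. At equal list length the list had 7 lost and 16 gained regions, 2.03% and 4.64% against 2.50% and 3.98% of all assigned regions. With no peak of the other group within 250 bp the balance turned, to 9 lost and 3 gained, 2.29% and 0.763% against 1.90% and 1.54%. The gained share was also lower without shRNA2 replicate 2 (11.4% against 15.3%), and was higher without each of the other libraries.

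Genes linked to autism had 15 lost and 14 gained of 540 regions, 2.78% and 2.59%. Of their 71 promoter regions 0 were lost and 6 gained (8.45%), against 2.13% and 2.47% of all promoter regions. The gained promoter share was higher in 2 other lists, at 3 of 19 (15.8%) for primed and Nodal genes and 1 of 7 (14.3%) for CHD remodellers. Those gained at autism-linked genes lay at Myt1l, Setd5, Shank2, Tcf4 and Wac, among others. The gained region at Myt1l, a neuronal zinc finger gene, lay 8 bp downstream of a start (4.86 and 5.28), and the one at Shank2, which encodes a synaptic scaffold, 48 bp downstream (4.25 and 5.28). Neither library of shRNA1 called either. Tcf4 and Wac also had a promoter region called in all 4 lists.

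The remaining lists had few changed regions, to be read beside 3.07% lost and 2.96% gained of all assigned regions. The remodellers of the CHD family had 5 lost (4.46%) and 4 gained (3.57%) of 112 regions. Chd1 gained a promoter region 9 bp upstream of a start (4.55 and 5.60), beside another called in all 4 lists. Chd4 lost a region at 819 bp (6.08 and 3.50) and gained one at 5292 bp (4.11 and 2.94). The KMT2 complexes, which methylate histone H3, had 3 lost (4.23%) and 1 gained (1.41%) of 71 regions, including a lost promoter region of the subunit gene Ash2l (3.90 and 5.49). CTCF and cohesin genes had 2 lost (2.53%) and 1 gained (1.27%) of 79, the gained one near Nipbl, the cohesin loader. Cell cycle genes driven by E2F factors had 2 lost (1.15%) and 5 gained (2.87%) of 174. The lists of neural, trophoblast, fibroblast and 2-cell-like genes had equal numbers lost and gained with the lists as deposited. These were 5, 6, 3 and 1 of each among 175, 183, 82 and 27 regions, or 2.86%, 3.28%, 3.66% and 3.70%. At equal list length the same lists had 3 lost and 6 gained (neural, 1.85% and 3.70%) and 6 and 8 (trophoblast, 3.87% and 5.16%). Fibroblast genes had 3 and 3 (4.05% each) and 2-cell-like genes 0 and 1 (3.85% gained), against 2.50% and 3.98% of all assigned regions.

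Some genes collected several changed regions. Fbxw11, an F-box protein of the ubiquitin ligase that marks β-catenin for degradation, had 6 lost and 0 gained of 36 assigned regions, with 5 of the lost ones strict. Ank3, which encodes a membrane-anchoring ankyrin, had 6 lost and 3 gained of 85. On the gained side, Tspan5, of the tetraspanin family, had 7 gained and 1 lost of 82, Gm26603 had 6 and 1 of 39, and Tmem64 had 6 and 1 of 59. Arhgef10l (6 and 0 of 47) and Pde4d (6 and 2 of 190) had as many gained regions as the latter genes, with 5 strict ones each against 6. These genes were picked for their counts, so the counts are a description. By chromosome, 2.68% to 3.28% of regions were lost and 2.71% to 3.35% gained over the autosomes and X with the lists as deposited. With tied shluci peaks kept in order of chromosome, strict lost regions made up 2.16% to 2.52% of regions on chromosomes 1 to 11 and 1.499% to 2.01% on the others. This split depended on the tie order and is not a pattern of the chromosomes. With ties in reverse order chromosomes 1, 2 and 3 were at 1.80%, 1.60% and 1.83%, and chromosomes 12, 14 and 17 at 2.52%, 2.45% and 2.50%. With tied peaks in random order the range over the autosomes and X was 1.73% to 2.33%.

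The other hairpin of the Chd8 set was measured in 2 libraries that took no part in the choice of regions. Its replicates called 36.4% and 31.3% of lost regions and 36.3% and 28.9% of gained regions, against 91.1% and 87.3% of regions called in all 4 lists. Lost and gained regions differed by at most 2.43 points here, and by more among strict regions, of which the replicates called 41.0% and 35.5% of lost and 36.9% and 29.4% of gained. Of lost regions 48.7% were called by neither shRNA1 library and 16.4% by both. Of gained regions 49.2% were called by neither and 14.4% by both. Among strict regions both called 19.9% of lost and 14.8% of gained. Lost regions with the CTCF consensus were called by shRNA1 in 48.7% and 43.3% of cases and those without it in 35.3% and 30.2%. Gained regions with it were called in 41.5% and 32.6% and those without it in 36.1% and 28.7%. The shares in regions called in all 4 lists were 91.1% and 87.5% with the consensus. The shRNA1 lists had median peak widths of 95 and 75 bp, nearer to shluci replicate 1 than to the shRNA2 libraries.

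All 18 libraries outside the Chd8 set called gained regions more often than lost ones, by 1.61 to 10.6 points. Among strict regions 2 of the 18 did not: control-line replicate 2 without IAA called 60.3% of lost and 59.6% of gained, and shluci replicate 1 of the Chd4 set 30.6% and 30.0%. In the 4 libraries of the control line without IAA and of the shluci cells of the Chd4 set, 25.2% of lost and 21.3% of gained regions were called by none and 6.20% and 8.94% by all 4. Regions called in all 4 lists of the comparison were at 0.954% and 67.4%.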

How the data were processed

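One peak list per ATAC-seq library was used, in the narrowPeak layout, for the 24 libraries of the series, of which 4 form the comparison. The submitters' processing notes name Trim Galore, Bowtie2, MACS2, deepTools and mm10, with no version or role. Each deposited list gives a fold, the ratio of a peak's summit signal to its surroundings in that library, and its significance as −log10 p and as −log10 q. These are the authors' values, and peaks were ranked, filtered and described with them inside one list at a time. Reads were not used here, so no counting interval was computed for single peaks, and absence from a list is not absence of accessibility. Depth was estimated under MACS2's model without a control, with the shortest peak of each list taken as the length to which reads were extended. The implied pileup was whole for 100% of 2000 peaks tested per library.

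Peaks of the 4 lists were merged into regions wherever they overlapped (Python 3.11.15, numpy 2.4.6, pandas 2.3.3). A region's class and nearest start came from its summit and the GENCODE vM21 basic annotation of GRCm38, with 77161 starts of 55413 genes. Motifs were read from the RefSeq GRCm38 sequence, and no sequence of chromosome 18 was printed. Peaks tied at the limit of a reduced list were kept in order of chromosome and position. Shares per library were compared at equal list length by exact permutation (scipy 1.17.1), two-sided, with Benjamini-Hochberg adjustment. The scripts were tested on simulated lists. Genes named are those of the first 8 strict promoter regions and the first 8 other strict regions in each direction by the lower within-list percentile, list members with a strict region, and the 3 genes with the most lost or gained regions (ties ordered by strict regions). Regions of Zfyve1, Epm2aip1, Gm13267 and Gm14106, with Sox17 and other members with regions that were not strict, were chosen after their values were seen. The members and lists were chosen with earlier results of these data known. Replicate numbers are shared between the groups, but the labels do not say that they pair samples. Some named members are not reported here.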

Additional observations from a re-analysis of the deposited data

How the results depend on the processing

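Regions lost fell to 2835 and regions gained to 4566 at 50% of the shortest list, to 721 and 2177 with −log10 q of at least 10, and, in a setting chosen after seeing the data, to 5242 and 4334 for regions with no peak of the other group within 250 bp. Leaving out one library gave 14926 to 60592 lost and 13557 to 39641 gained regions. Any overlap of at least 50% of the shorter peak, summits within 250 bp, and equal list length kept both counts within 1.5 times. Of 177 named regions, the direction was kept by 177 at equal length, which their choice as strict regions fixes, 142 with summits within 250 bp, 48 at 50% of the shortest list and 14 with −log10 q of at least 10, where fewer peaks are compared. In alternatives added after seeing the data, peaks tied at the equal-length limit were taken in reverse or in random order, which gave 6039 and 5982 lost and 9702 and 9703 gained regions. Of the 73 named lost regions 70 and 69 then stayed strict, as did 104 of 104 gained ones, and the CTCF difference was −0.638 and −0.622 points.

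With the replicate number as a block the counts stay at 8423 and 8258 by construction, and the differences in shares are the same, such as −0.821 points for promoters and −0.615 for the CTCF consensus. The correlation of replicate differences between the groups was 0.00333 over regions, so the numbers give no hint of pairing.

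Some differences in shares, in percentage points, changed sign, and the cause was not tested. At deposited list lengths the promoter difference was 0.710 points, introns −0.794, coding exons −0.00314 and other exons −0.0459. At 50% of the shortest list coding exons were at −0.0790, intergenic stretches at 0.312, masked peaks at 0.329 and GC content at −0.0502. With −log10 q of at least 10, intergenic stretches were at 0.895, masked peaks at 0.893, GC content at −0.212 and CpG sites per window at −0.435. Without one library, coding exons ranged from −0.116 to 0.121, other exons from −0.0151 to 0.0306, intergenic stretches from −0.525 to 0.481, masked peaks from −0.952 to 0.857, GC from −0.286 to 0.376 and CpG from −0.127 to 0.268. The differences for the CTCF consensus (−0.753 to −0.477), promoters, introns and the 500 to 2000 bp class kept their sign without any one library.

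With 2 libraries a group, exact permutation cannot give a share a p below 0.333. The median within-list percentile of lost and gained regions was 35.5 to 38.8, so peaks of middling to low rank carry the counts.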
